A study of Mus musculus with 25 samples.

Results

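The semaphorin genes of the forming mouse palate and their receptors were taken as every row of the expression table whose symbol names a semaphorin of classes 3 to 7, a plexin of types A to D, Nrp1 or Nrp2. The rule reads the symbol alone and uses no measured value. There were 32 such rows for 31 genes, of 37406 rows in all. Class 3 semaphorins took 8 rows, class 4 took 6, class 5 took 2, class 6 took 4 and class 7 took 1. The receptors were 2 neuropilins, 4 plexins of type A, 3 of type B, 1 of type C and 1 of type D. Sema3a was listed on 2 overlapping rows, a longer one at chr5:13125414-13524707 and a shorter one at chr5:13398997-13602571 in the mm9 build, so its reads may have been divided between them. Each row is given separately, and the split makes both levels uncertain.

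Semaphorins are guidance proteins that steer axons, blood vessels and migrating cells, neural crest cells among them, and neural crest supplies most of the palatal mesenchyme. Class 3 semaphorins are secreted and bind a neuropilin, which holds the ligand while a type A plexin carries the signal into the cell, except that Sema3e can bind Plxnd1 directly. The other vertebrate classes are attached to the membrane and bind plexins without a neuropilin. Neuropilins also bind vascular endothelial growth factor and are well known in endothelium and in nerves.

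All libraries came from wild type CD1 mouse embryos at E14.5, with no treatment and no other genotype. Tissue was cut by laser capture microdissection from 4 positions in the anterior palate and the same 4 in the posterior palate, namely medial, lateral, oral and nasal. The study's diagram draws medial and lateral as a division of the palatal shelves, and oral and nasal as a separate division of them. Tissue of the former may overlap with tissue of the latter, so the 8 compartments need not be distinct tissue. RNA-seq gave 3 libraries for each compartment and 4 for anterior nasal, 25 in all. The replicates are called biological, but the sources used here do not say which embryos were used or whether any were pooled. A p-value here sets a difference against the spread between these libraries, which may not be the spread between embryos.

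Values are RPKM as deposited, read numbers scaled to transcript length and to the mapped reads of the library. Depth worked out from the values was 1.64 to 6.56 M reads per library, and 1 read on the longest transcript of a member is then worth 0.0238 to 0.0955 RPKM at the median depth. The scale of this depth is uncertain, since the study gives a larger average read number. Posterior medial 2 and anterior oral 1 stood apart, with mean correlations across genes of 0.648 and 0.712 with the other libraries, against 0.771 to 0.864 for the other 23. Libraries came from 8 sequencing runs, and neither the anterior nor the posterior lateral compartment shared a run with its medial compartment. The 7 palate mesenchyme markers summed to between 633 and 1351 RPKM in each library. Of the defining markers of the other cell types checked, Myod1 alone, which marks muscle, was listed at 0 in every library of a compartment, in anterior medial and in posterior medial.

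Levels of the 32 rows covered a wide range. The median over 25 libraries was above 20 RPKM for 8 rows, between 5 and 20 RPKM for 15 and below 5 RPKM for 9. Sema5a led with a median level of 49.1 RPKM, followed by Plxnb2 at 40.8 RPKM, Sema6a at 39.1 RPKM and the shorter Sema3a row at 32.7 RPKM. The lowest medians were those of Sema3g at 0.521 RPKM, Plxnb3 at 0.620 RPKM, Sema6b at 0.911 RPKM and Sema3b at 1.47 RPKM. Of the rows, 11 had at least 5 RPKM in every library and 5 were listed at 0 in at least 1 library. Posterior medial 2 was among the libraries at 0 for each of those 5, namely Sema3b, Sema3g, Sema6b, Sema7a and Plxnb3.

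**Figure D1:**
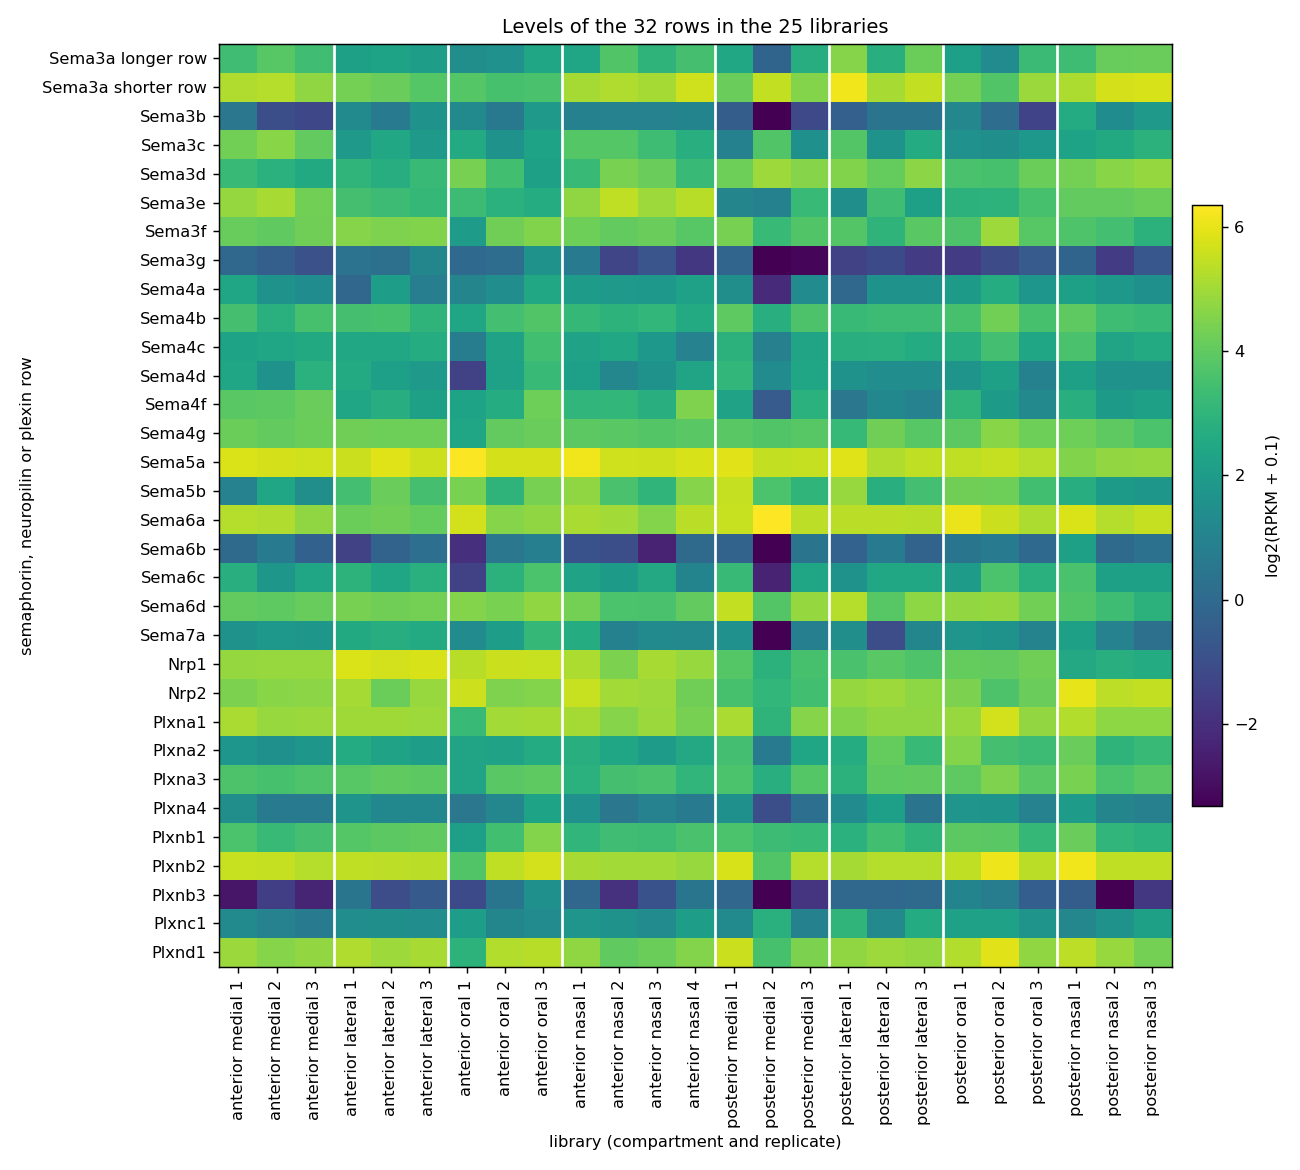
Level of each of the 32 rows, as log2(RPKM + 0.1) in colour, in each of the 25 libraries, with white lines between the 8 compartments. Sema5a, Plxnb2, Sema6a, Nrp1, Nrp2 and the shorter Sema3a row are bright in most libraries, the Nrp1 row darkens in the posterior libraries, and posterior medial 2 has the darkest cells.

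Compartments were compared with limma on log2(RPKM + 0.1), and a gene entered a comparison when 3 or more of its samples reached 5 RPKM, or, for posterior against anterior, when 6 or more reached 10 RPKM. A gene was called at a Benjamini-Hochberg adjusted p under 0.05 over all genes tested. The cutoffs of the study, P under 0.05 with a fold change over 2, were applied to the unadjusted P of limma for a second count. The study does not say whether its P was adjusted, and for posterior against anterior it used an Audic-Claverie test on pooled samples in place of a moderated test. For anterior lateral against medial, 24 rows were tested and 9 were called, where 2.51% of all genes tested were called. Among the 9 were the longer Sema3a row and Sema7a, which each passed the expression minimum by being high in a single compartment. For posterior oral against nasal 3 of 21 were called against 1.25% of all genes, and for posterior against anterior 3 of 19 against 3.32%. For anterior oral against nasal none of 22 rows was called, nor was any of 22 for the posterior lateral and medial libraries, and limma called 0% of all genes in both.

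At the study's thresholds there were 5 rows for anterior lateral against medial (2.37% of all genes), 4 for anterior oral against nasal (1.44%), 2 for posterior lateral against medial (1.12%), 6 for posterior oral against nasal (3.5%) and 3 for posterior against anterior (1.75%). At an unadjusted P under 0.05 alone, posterior lateral against medial had 2 rows (1.54% of all genes) and anterior oral against nasal had 6 (2.98%). The 2 groups of libraries did not overlap for 15 of 24 rows in anterior lateral against medial (21.3% of all genes) and 3 of 22 in posterior lateral against medial (6.62%). They did not overlap for 6 of 22 rows in anterior oral against nasal (3.67%), 9 of 21 in posterior oral against nasal (11.8%) and 1 of 19 in posterior against anterior (0.267%). The 15 rows of anterior lateral against medial include the longer Sema3a row and Sema7a, which passed the minimum through a single compartment. Median log2 differences of the rows tested were 0.10, 0.29, -0.06, 0.23 and 0.12 in these 5 comparisons, beside -0.03, 0.05, -0.01, -0.01 and 0.03 over all genes tested. Of the rows tested, 14 of 24, 13 of 22, 7 of 22, 15 of 21 and 11 of 19 had a difference above 0, and these directions were not tested.

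**Figure D2:**
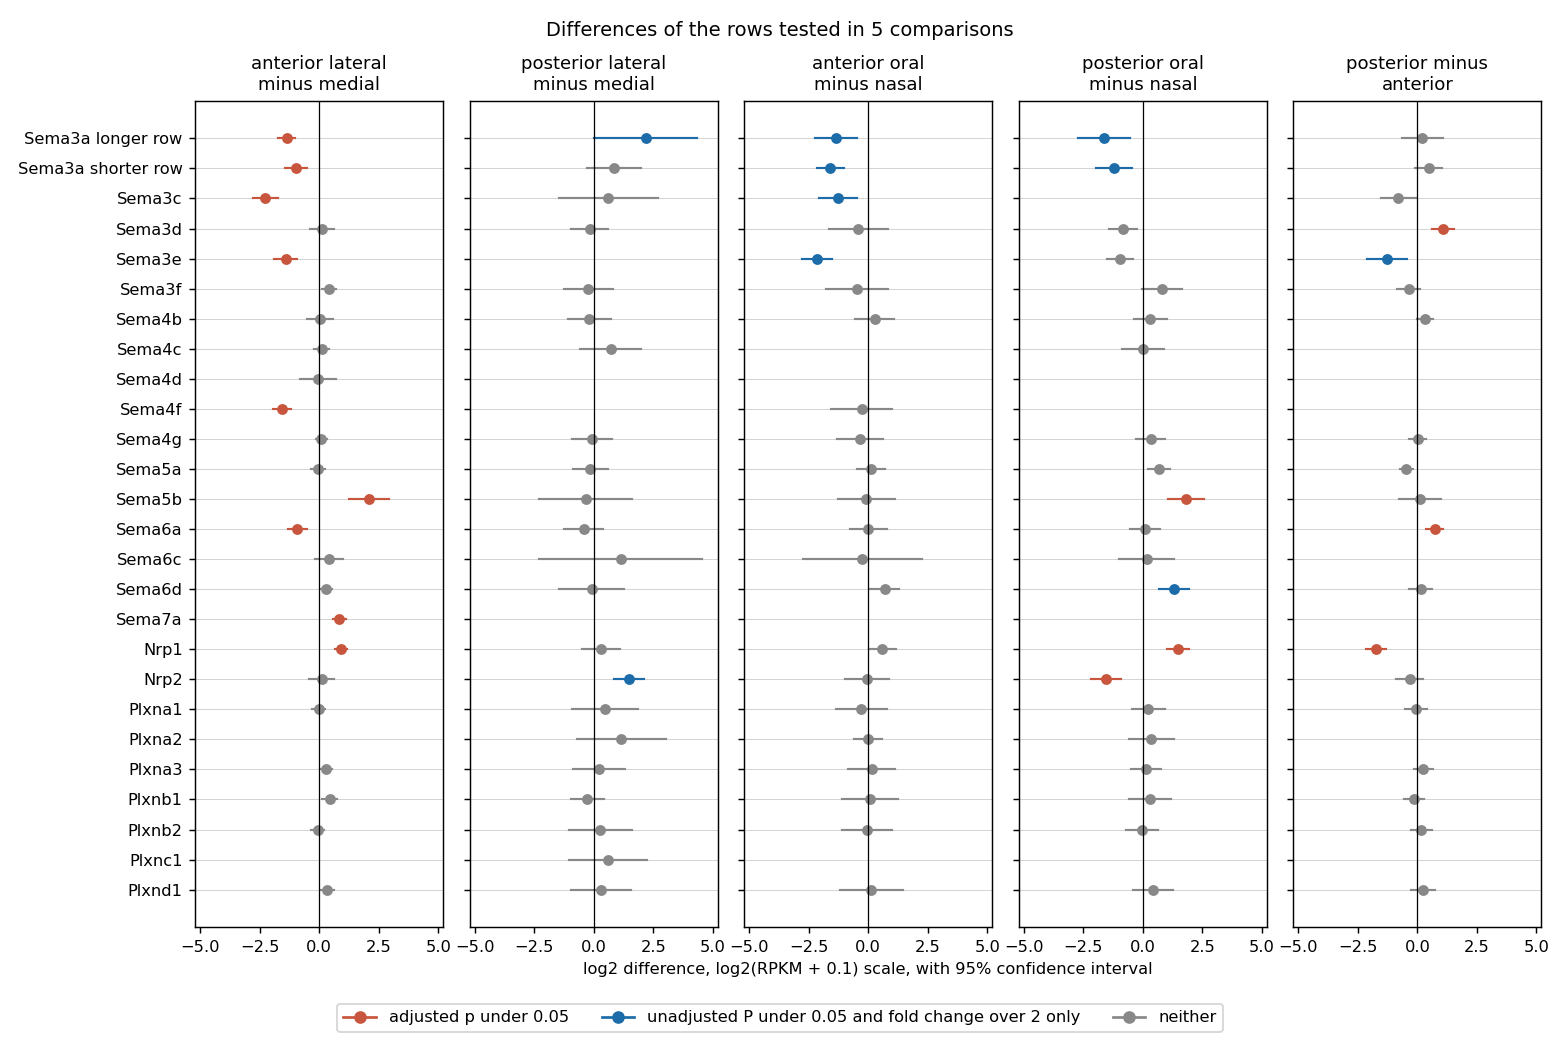
Log2 differences on the log2(RPKM + 0.1) scale with 95% confidence intervals for the rows tested in 5 comparisons (lateral minus medial, oral minus nasal, posterior minus anterior); red marks an adjusted p under 0.05, blue the study's thresholds alone and grey neither. The rows of Sema3a, Sema3c and Sema3e lie left of 0 in anterior lateral minus medial and in the oral minus nasal panels where they were tested, Nrp1 lies right of 0 in these panels, and most plexin intervals cross 0.

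The secreted class 3 ligands Sema3a, Sema3c and Sema3e were lower in the anterior lateral than in the anterior medial compartment. Sema3c, a ligand for both neuropilins, had levels of 19.6, 25.1 and 16.1 RPKM in the 3 anterior medial libraries and 3.61, 5.34 and 3.53 RPKM in the 3 anterior lateral ones. The groups did not overlap, and its log2 difference of -2.26 (SE 0.22, adjusted p = 0.00344) was a level 4.78-fold higher in medial. Sema3e, the ligand of Plxnd1, stood at 27.9, 33.6 and 19.5 RPKM in medial and at 11.3, 9.82 and 8.59 RPKM in lateral. Every medial library was above every lateral one, with a log2 difference of -1.41 (SE 0.21, adjusted p = 0.0178). Sema3a, the classic repellent that acts through Nrp1, had 10.4, 14.4 and 10.4 RPKM in medial and 4.42, 4.85 and 4.06 RPKM in lateral on its longer row. On its shorter row the values were 36.6, 38.3 and 26.5 RPKM in medial and 19.9, 17.6 and 13.9 RPKM in lateral. Neither row overlapped between the groups, and the log2 differences were -1.37 (SE 0.16, adjusted p = 0.00649) and -0.97 (SE 0.19, adjusted p = 0.0498). The longer row passed the expression minimum through its medial libraries alone, so it entered the comparison by being high there.

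In bulk tissue a lower level can come from fewer cells of a type or from less RNA per cell, and these cannot be told apart. Marker sums also separated the anterior lateral from the anterior medial libraries. Lateral was higher for 10 endothelial markers (224 to 260 against 159 to 184 RPKM) and 8 Schwann cell markers (35.7 to 44.4 against 11.9 to 16.96 RPKM). It was lower for 12 epithelial markers (51.8 to 83.6 against 87.0 to 157 RPKM), 6 neuronal markers (8.73 to 15.6 against 36.0 to 56.7 RPKM) and 5 chondrocyte markers (20.7 to 21.7 against 67.6 to 109 RPKM). A sum can rest on a few genes of its list. Of the 12 epithelial markers 8 reached the expression minimum, with 2 called lower and 1 called higher in lateral. Of the 6 neuronal markers 1 reached it and was called lower. The 7 mesenchyme markers also separated, at 836 to 905 RPKM in lateral against 752 to 830 RPKM in medial. The part of these markers in the differences was not tested. Because no run was shared, run and compartment cannot be told apart in this comparison, and the 9 calls fell to 0 when the spread was estimated from all 25 libraries.

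The same ligands had lower levels in oral than in nasal tissue of the anterior palate, without a call. Sema3e levels were 9.95, 7.22 and 6.29 RPKM in anterior oral and 27.0, 42.4, 30.9 and 39.7 RPKM in anterior nasal. The lowest nasal library was above the highest oral one, with a log2 difference of -2.15 (SE 0.27, unadjusted P = 4.27e-05, adjusted p = 0.114). The adjusted p of Sema3e was 0.503 with the replicate number as a block and 0.405 with the run as a block. Over 18 alternatives it ran from 0.0474 without anterior oral 1, which stood apart from the other libraries and gave the single call, to 0.533 without anterior nasal 2. For the shorter Sema3a row the levels were 13.98, 11.5 and 11.9 RPKM in oral and 32.7, 37.1, 32.6 and 50.7 RPKM in nasal, again with no overlap, and the log2 difference was -1.59 (SE 0.25, adjusted p = 0.200). Sema3c stood at 5.89, 2.92 and 4.79 RPKM in oral and 13.7, 13.98, 9.996 and 6.85 RPKM in nasal, and the longer Sema3a row at 2.63, 2.89 and 5.09 RPKM against 5.21, 13.3, 7.68 and 11.2 RPKM. Neither overlapped, with log2 differences of -1.28 and -1.35 and adjusted p of 0.885 and 0.906. Each of the 3 runs that held both compartments had 1 oral library and 1 or 2 nasal ones. Within each, oral less nasal was negative for all 4 rows, from -0.51 to -2.64 on the log2 scale. Marker sums that separated these compartments were those of Schwann cells (49.4 to 71.4 RPKM in oral against 11.1 to 27.8 RPKM in nasal), 6 osteoblast markers (46.9 to 75.0 against 90.6 to 120 RPKM) and chondrocytes (19.7 to 48.8 against 57.4 to 101 RPKM), and their part was not tested.

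**Figure D3:**
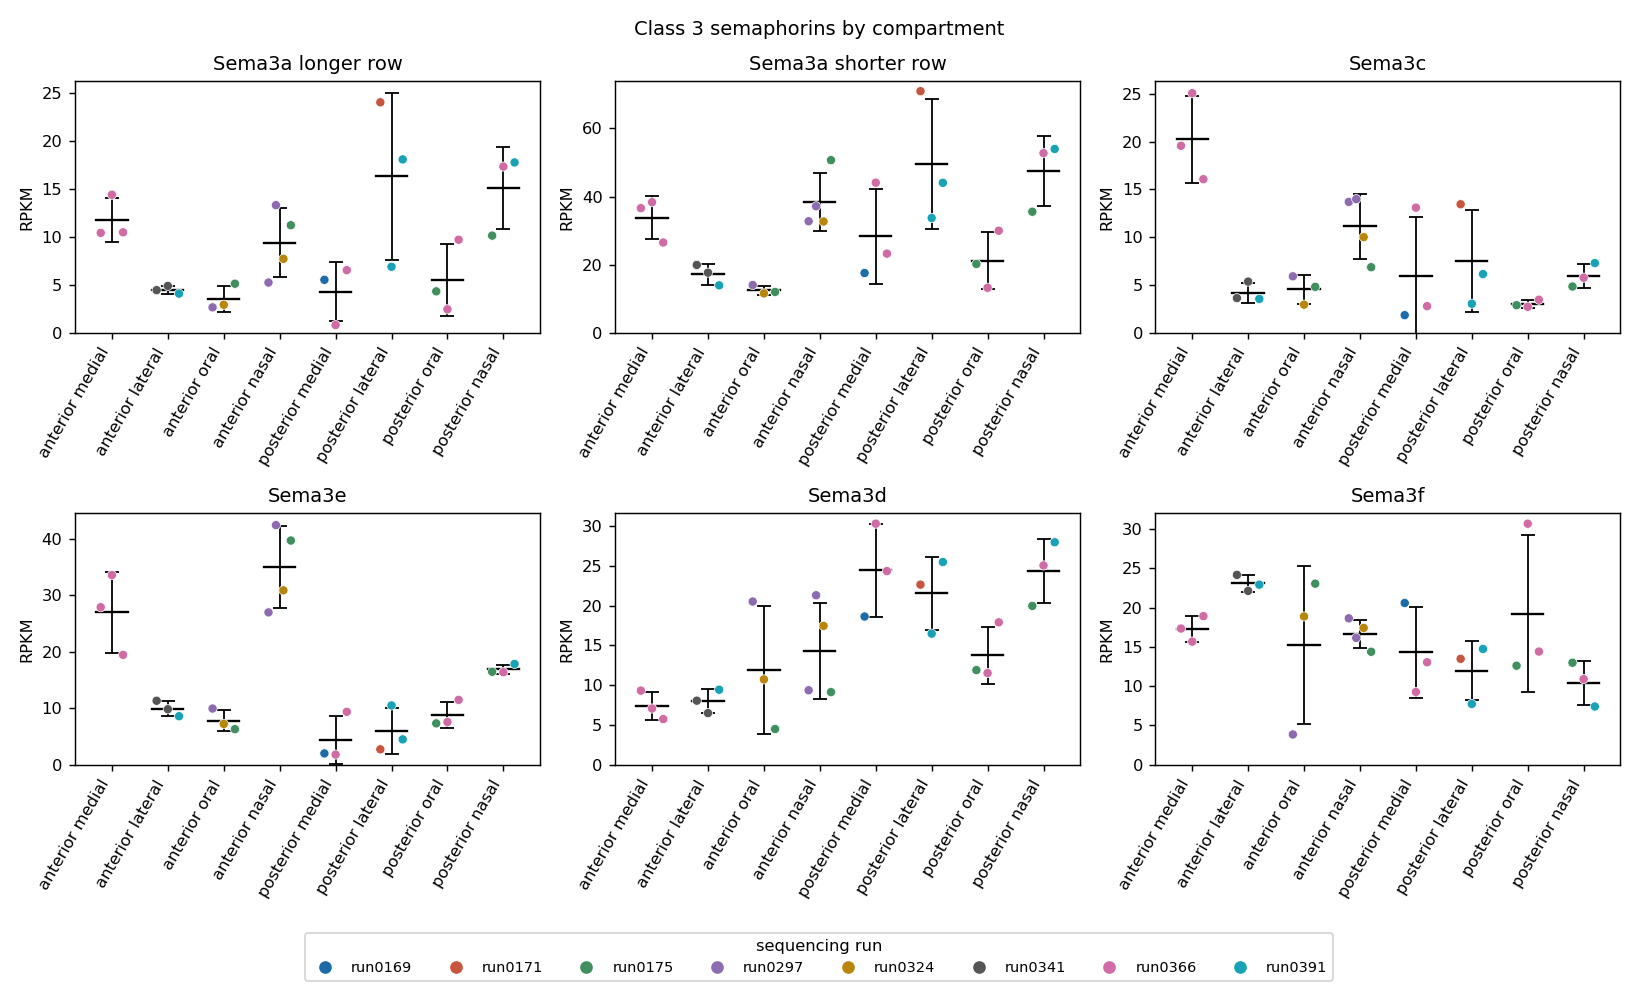
Levels in RPKM of 6 class 3 semaphorin rows in the 8 compartments. Each point is 1 library coloured by sequencing run, the line is the compartment mean and the bar is the SD (n = 3, and 4 for anterior nasal), drawn down to 0 at the lowest. Sema3a, Sema3c and Sema3e are high in anterior medial and anterior nasal and low in anterior lateral and anterior oral, while Sema3d is higher in posterior than in anterior medial and lateral tissue.

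In the posterior palate Sema3e and both Sema3a rows again had lower levels in oral than in nasal tissue, without a call. Sema3e levels were 7.32, 7.56 and 11.5 RPKM in posterior oral and 16.5, 16.4 and 17.8 RPKM in posterior nasal. The groups did not overlap, and the log2 difference was -0.97 (SE 0.24, adjusted p = 0.134). On the shorter Sema3a row the levels were 20.2, 13.2 and 29.9 RPKM in oral and 35.5, 52.8 and 54.0 RPKM in nasal (log2 difference -1.22, adjusted p = 0.191), and on the longer row 4.29, 2.42 and 9.67 RPKM against 10.1, 17.3 and 17.7 RPKM (-1.62, adjusted p = 0.240). Both rows were separate between the compartments and past the study's thresholds. The difference between the anterior and posterior oral minus nasal contrasts, tested as an interaction in limma, was -1.19 for Sema3e (SE 0.36, unadjusted P = 0.00586, adjusted p = 0.627). That value and those of Nrp2 and Sema5b were the 3 of 23 rows past the study's thresholds for this interaction, against 2.38% of all genes, and 0 rows were called, against 0.035%. At an unadjusted P under 0.05 there were 4 rows, against 3.38% of all genes.

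For posterior lateral against medial none of the 5 class 3 rows tested was called, and the single row whose libraries were separate was higher in lateral. The longer Sema3a row had 23.99, 6.85 and 18.0 RPKM in posterior lateral and 5.50, 0.780 and 6.50 RPKM in posterior medial, so that every lateral library was above every medial one. Its log2 difference of 2.18 (SE 0.89, unadjusted P = 0.0475, adjusted p = 0.957) was 1.25 without posterior medial 2. The shorter row overlapped, with 71.0, 33.7 and 44.0 RPKM in lateral and 17.5, 44.1 and 23.2 RPKM in medial. Sema3c levels of 13.4, 3.02 and 6.13 RPKM in lateral and 1.82, 13.1 and 2.77 RPKM in medial overlapped too, as did those of Sema3e. Epithelial markers were the only list whose sums separated these compartments, at 28.6 to 38.5 RPKM in lateral and 63.6 to 224 RPKM in medial, and their part was not tested.

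As an interaction, anterior less posterior lateral minus medial, 6 of 26 rows were past the study's thresholds, against 2.42% of all genes, and 0 were called, against 0.00902%. At an unadjusted P under 0.05 there were 7 rows, against 3.36% of all genes. The values were -3.55 for the longer Sema3a row, -2.88 for Sema3c, -2.03 for Sema3e, -1.82 for the shorter Sema3a row, -1.38 for Nrp2 and 2.43 for Sema5b, with adjusted p of 0.561 to 0.964. Without posterior medial 2, Sema3c gave -3.71, the longer Sema3a row -2.62 and the shorter row -2.20, with adjusted p of 0.143 to 0.197. In the same fit Nrp2 gave -1.25, Sema3e -1.62 and Sema5b 2.64, with adjusted p of 0.310 to 0.922. Lateral and medial shared no run in the anterior or in the posterior palate. Anterior and posterior lateral did share a run, as did anterior and posterior medial, so the contrast could be fitted with run as a block. That fit, added after seeing the data, gave -3.71 for the longer Sema3a row, -1.98 for Sema3c and -2.33 for Sema3e. It gave -1.53 for the shorter Sema3a row, -1.31 for Nrp2 and 2.08 for Sema5b. The shared runs held 1 anterior and 2 posterior lateral libraries and 3 anterior and 2 posterior medial ones.

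Sema3d, a secreted ligand that acts on neural crest and endothelial cells, was higher in the posterior palate. It ranged from 11.5 to 30.3 RPKM with a median of 21.3 RPKM in the 12 posterior libraries and from 4.48 to 21.3 RPKM with a median of 9.31 RPKM in the 13 anterior ones. The ranges overlapped, and the log2 difference of 1.06 (SE 0.22, adjusted p = 0.00482) was a 2.09-fold higher level. By position, mean levels were 24.4 RPKM in posterior medial against 7.37 RPKM in anterior medial and 21.5 against 7.99 RPKM in lateral, both without overlap. They were 13.8 against 11.9 RPKM in oral and 24.3 against 14.3 RPKM in nasal, both overlapping. Posterior less anterior was positive in each of the 4 positions when taken within 1 run, from 1.11 to 1.90 on the log2 scale. Such a run held 2 posterior and 3 anterior libraries in medial, 2 and 1 in lateral, and 1 and 1 in oral and nasal. In oral tissue that single pair gave 1.39, against 0.43 over all oral libraries. In posterior oral Sema3d stood at 11.9, 11.5 and 17.9 RPKM, below the 19.97, 25.1 and 27.97 RPKM of posterior nasal (log2 difference -0.83, adjusted p = 0.272).

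Sema3e went the other way along the anterior-posterior axis and was not called. Its level ranged from 1.79 to 17.8 RPKM in posterior and from 6.29 to 42.4 RPKM in anterior libraries, with a log2 difference of -1.28 (SE 0.41, unadjusted P = 0.00410, adjusted p = 0.0890). With the run as a block the adjusted p was 0.528, and with all 25 libraries fitted by compartment it was 0.00281, the single alternative of 37 with a call. Posterior medial levels were 1.99, 1.79 and 9.36 RPKM, below the 3 anterior medial ones, with means of 4.38 against 27.0 RPKM. The posterior medial mean was 1.89 RPKM without posterior medial 3. Nasal means were 16.9 against 35.0 RPKM, also with no overlap, and oral means were 8.79 against 7.82 RPKM.

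Of the other class 3 members, Sema3f, which favours Nrp2, had 24.2, 22.1 and 22.9 RPKM in anterior lateral and 17.3, 15.7 and 18.9 RPKM in anterior medial. These did not overlap, and the log2 difference of 0.42 (adjusted p = 0.137) was not called. Sema3b and Sema3g, at most 6.16 and 3.03 RPKM, were below the minimum in all 5 comparisons.

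The genes for Sema3a, Sema3c, Sema3d and Sema3e lie on chromosome 5 in the files' mm9 coordinates, from 12383166 at the start of Sema3d to 17236085 at the end of Sema3c, with Sema3c at chr5:17080634-17236085 and Sema3e at chr5:14025276-14256689. Nrp1 lies at chr8:130882973-131029375. The 250 bases before the RefSeq start of the 3 ligands with the same anterior pattern, and of Nrp1, which was higher in anterior lateral where they were lower, are printed to show how unlike these promoters are in base composition. RefSeq entries were found for 26 of the 31 genes. Coordinates here are GRCm38.p6, plus strand, at chr5:13396534-13396783, chr5:17574566-17574815, chr5:14025026-14025275 and chr8:128358823-128359072. The Sema3a rows of the expression table start at 13125414 and 13398997 in mm9, so the Sema3a window need not be the promoter of either row. Capitals mark the motifs CANNTG, bound by basic helix-loop-helix factors, and TAAT, the core of many homeodomain sites, on either strand.
Sema3a: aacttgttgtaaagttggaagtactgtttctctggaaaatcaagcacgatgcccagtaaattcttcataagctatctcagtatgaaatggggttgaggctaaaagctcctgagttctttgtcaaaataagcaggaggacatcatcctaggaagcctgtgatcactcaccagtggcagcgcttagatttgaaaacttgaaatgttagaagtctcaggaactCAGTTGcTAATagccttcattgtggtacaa
Sema3c: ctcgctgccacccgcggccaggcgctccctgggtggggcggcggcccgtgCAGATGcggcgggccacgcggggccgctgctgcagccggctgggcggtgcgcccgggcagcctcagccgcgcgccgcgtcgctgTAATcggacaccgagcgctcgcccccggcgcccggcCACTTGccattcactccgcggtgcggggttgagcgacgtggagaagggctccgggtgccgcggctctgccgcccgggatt
Sema3e: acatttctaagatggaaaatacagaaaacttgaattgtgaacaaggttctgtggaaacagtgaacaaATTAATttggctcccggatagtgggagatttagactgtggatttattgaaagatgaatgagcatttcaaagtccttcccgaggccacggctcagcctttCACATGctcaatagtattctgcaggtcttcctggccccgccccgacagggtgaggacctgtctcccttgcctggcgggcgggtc
Nrp1: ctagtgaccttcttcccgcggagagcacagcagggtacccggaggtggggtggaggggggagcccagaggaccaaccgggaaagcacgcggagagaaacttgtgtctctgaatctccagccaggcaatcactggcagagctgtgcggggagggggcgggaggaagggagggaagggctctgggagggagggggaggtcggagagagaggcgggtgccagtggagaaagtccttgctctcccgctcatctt
The G and C content was 40.8% before Sema3a, 78.4% before Sema3c, 48% before Sema3e and 64.4% before Nrp1, with a median of 52.4% over the 32851 promoters in the RefSeq table. CANNTG occurred in the windows of the 3 ligands and TAAT likewise, and neither was in the Nrp1 window. Over all promoters 66.2% held CANNTG and 54.9% held TAAT. A match is a string of letters only.

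The membrane semaphorins of class 4, which signal mainly through type B plexins, had a single member called in any of the 5 comparisons, Sema4f. It had 14.6, 15.1 and 17.6 RPKM in anterior medial and 5.14, 6.45 and 4.41 RPKM in anterior lateral. The groups were well apart, with a log2 difference of -1.56 (SE 0.16, adjusted p = 0.00447). It was below the minimum in both posterior comparisons, where no library was above 7.94 RPKM, and in posterior against anterior. Posterior means of Sema4f were 4.10 against 15.8 RPKM in medial and 1.795 against 5.335 RPKM in lateral, both without overlap. They were 4.67 against 9.89 RPKM in oral and 4.97 against 11.3 RPKM in nasal, both overlapping, and this pattern has no p. Sema4g had the lowest coefficient of variation of class 4, at 23.97% over all 25 libraries, and compartment means within 1.52-fold of each other. Sema4a and Sema4d had medians of 3.06 and 3.63 RPKM, and Sema4b and Sema4c of 10.02 and 5.30 RPKM, with no call for any of them. Their compartment means spanned 2.59-fold for Sema4a, 1.96-fold for Sema4c, 1.95-fold for Sema4d and 1.87-fold for Sema4b.

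Class 5 semaphorins carry thrombospondin repeats beside the semaphorin domain. Sema5b, the lower of the pair, had 10.9, 17.5 and 11.2 RPKM in anterior lateral and 1.86, 5.08 and 2.68 RPKM in anterior medial. Each lateral library was above each medial one, and the log2 difference of 2.09 (SE 0.36, adjusted p = 0.0273) was a 4.26-fold higher level. In the posterior palate Sema5b had 19.2, 18.7 and 10.7 RPKM in oral and 6.45, 3.80 and 3.35 RPKM in nasal. These did not overlap either, with a log2 difference of 1.82 (SE 0.33, adjusted p = 0.0441). The anterior oral and nasal levels overlapped, from 7.68 to 21.2 RPKM and from 8.03 to 26.4 RPKM, and the interaction of -1.90 had an adjusted p of 1.0. Sema5a, the highest member, ran from 23.0 RPKM in a posterior nasal library to 79.0 RPKM in an anterior oral one. Its 3 posterior nasal levels of 23.0, 27.6 and 28.4 RPKM were below all 22 others, and posterior less anterior came to -0.47 (SE 0.13, adjusted p = 0.0529).

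**Figure D4:**
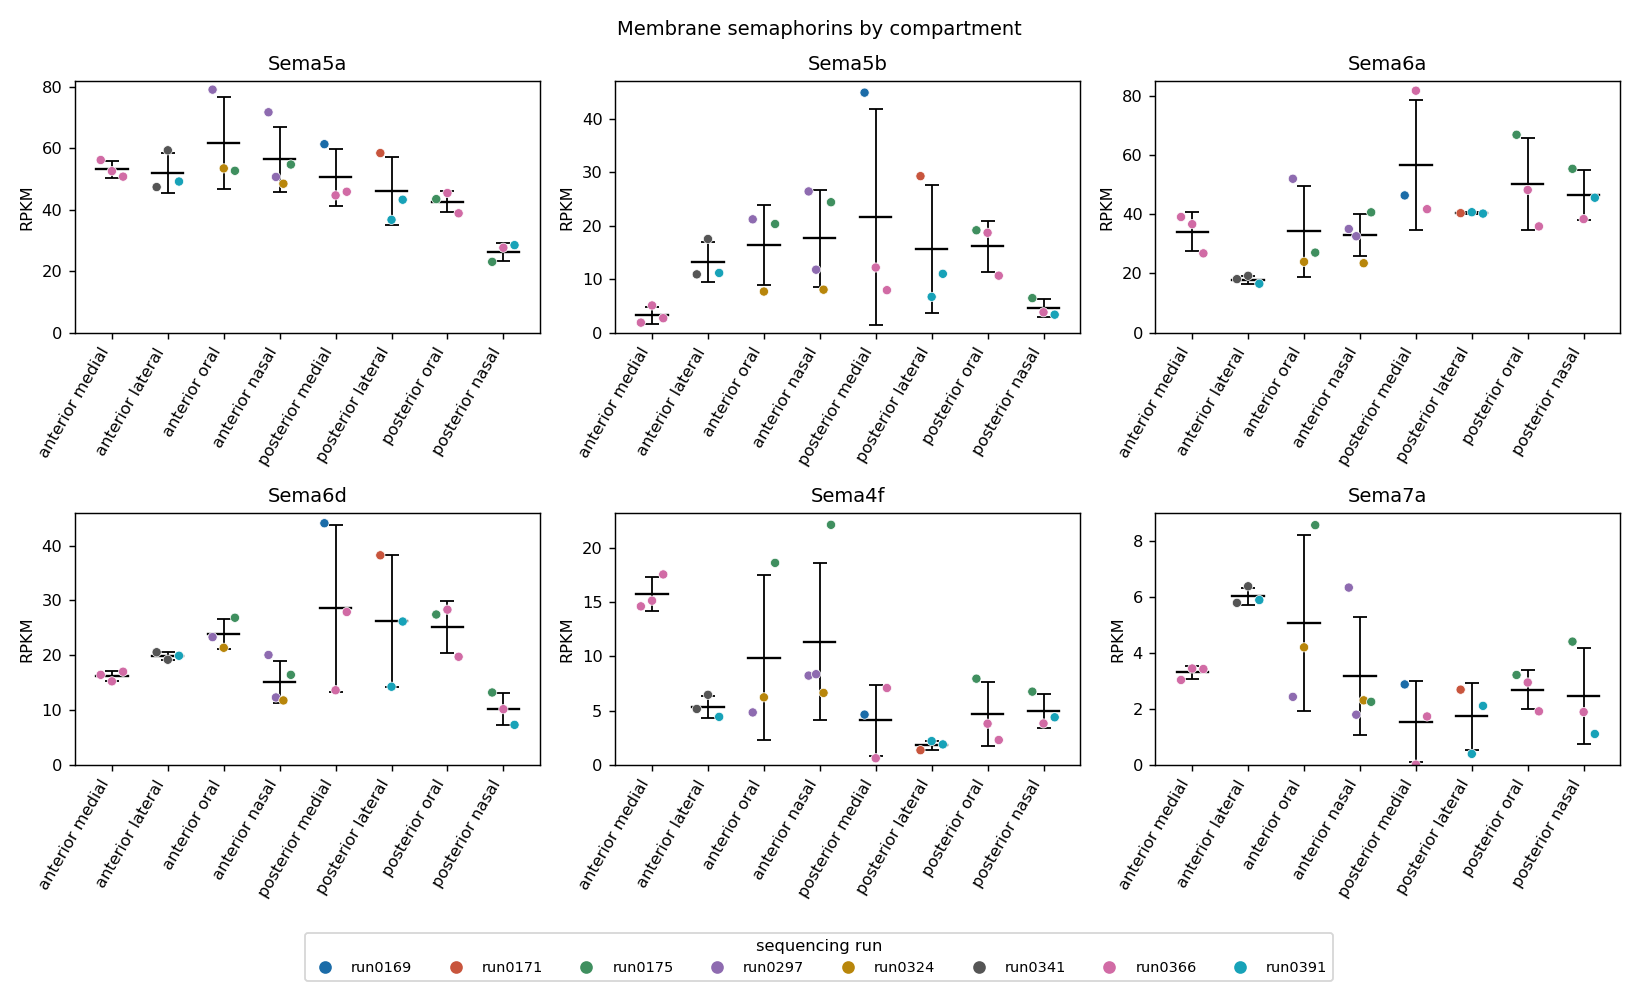
Levels in RPKM of 6 membrane semaphorins in the 8 compartments, with points, lines and SD bars as for the class 3 plot (n = 3, and 4 for anterior nasal). Sema5b is lowest in anterior medial and posterior nasal, Sema6a lowest in anterior lateral, Sema4f highest on average in anterior medial, and Sema5a lowest in posterior nasal.

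Among class 6 semaphorins, which bind type A plexins directly, Sema6a was called in 2 comparisons. Its anterior medial levels were 39.1, 36.7 and 26.8 RPKM and its anterior lateral levels 18.1, 19.2 and 16.5 RPKM. They did not overlap, and the log2 difference was -0.91 (SE 0.17, adjusted p = 0.0352). Over the whole palate Sema6a ranged from 35.9 to 81.8 RPKM in posterior and from 16.5 to 52.0 RPKM in anterior libraries. The ranges overlapped, with a log2 difference of 0.72 (SE 0.17, adjusted p = 0.0137). Within single runs it was 0.445 to 1.304 in the 4 positions, with the few libraries per run given for Sema3d. Sema6d had 27.4, 28.3 and 19.7 RPKM in posterior oral against 13.2, 10.1 and 7.27 RPKM in posterior nasal, past the study's thresholds with no overlap (log2 difference 1.32, adjusted p = 0.0802). In the anterior palate its oral levels of 23.3, 21.3 and 26.8 RPKM were also above its nasal levels of 20.03, 12.3, 11.7 and 16.4 RPKM (0.68, unadjusted P = 0.0331, adjusted p = 1.00). Sema6b never passed 4.44 RPKM, and Sema6c gave no call.

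Sema7a, the class attached to the membrane by a lipid anchor, had 5.78, 6.37 and 5.88 RPKM in anterior lateral and 3.02, 3.43 and 3.42 RPKM in anterior medial. The libraries did not overlap and the log2 difference was 0.85 (SE 0.11, adjusted p = 0.0110). With the spread estimated from all 25 libraries the SE was 0.891 and Sema7a was not called. At the uncertain depth worked out here it stood for 33.2 reads in the median library, with a counting variation of 17.35%. Sema7a passed the expression minimum through its lateral libraries alone, and the longer Sema3a row through its medial ones alone, so these 2 entered the comparison by being high in a single compartment. Sema7a was below the minimum in the other 4 comparisons.

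Nrp1, the main coreceptor of Sema3a, had the lowest adjusted p of any member in any comparison and was higher in anterior than in posterior tissue. Its level ranged from 21.7 to 56.5 RPKM with a median of 35.7 RPKM in the 13 anterior libraries and from 5.63 to 19.0 RPKM with a median of 12.3 RPKM in the 12 posterior ones. No posterior library reached the lowest anterior one, and the log2 difference was -1.75 (SE 0.20, adjusted p = 2.23e-06), or 3.36-fold. Compartment means were 54.4 ± 2.48 RPKM in anterior lateral, 44.8 ± 3.97 in anterior oral, 30.1 ± 6.20 in anterior nasal and 28.9 ± 0.434 in anterior medial (SD, n = 4 for anterior nasal and 3 otherwise). They were 17.3 ± 1.51 RPKM in posterior oral, 13.1 ± 1.47 in posterior lateral, 10.9 ± 3.41 in posterior medial and 6.21 ± 0.627 in posterior nasal (SD, n = 3). Anterior nasal and anterior medial overlapped, as did posterior lateral and posterior medial. Within single runs posterior less anterior was -1.65 in medial, -1.997 in lateral, -1.47 in oral and -2.36 in nasal tissue. These values rest on the few libraries per run given for Sema3d. Over all positions together no sum of cell type markers separated posterior from anterior libraries, and the endothelial sum was 85.5 to 268 RPKM in posterior and 109 to 290 RPKM in anterior.

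Within positions some marker sums did separate them, for 1 of 11 lists in medial, 3 in lateral, 6 in oral and 2 in nasal tissue. Epithelial sums were lower in posterior than in anterior lateral (28.6 to 38.5 against 51.8 to 83.6 RPKM), oral (32.9 to 43.5 against 49.4 to 99.1 RPKM) and nasal tissue (38.1 to 63.5 against 83.95 to 154 RPKM). Schwann cell sums were lower in posterior lateral (19.5 to 29.1 against 35.7 to 44.4 RPKM) and in posterior oral tissue. Osteoblast sums were higher in posterior nasal (378 to 548 against 90.6 to 120 RPKM) and in posterior oral tissue, and chondrocyte sums in posterior lateral (46.6 to 77.2 against 20.7 to 21.7 RPKM) and posterior oral tissue. In oral tissue myeloid and red cell sums were higher in posterior as well, and in medial tissue those of platelets (42.2 to 126 against 13.4 to 28.2 RPKM). Endothelial sums overlapped in each of the 4 positions. The part of these markers in the Nrp1, Sema3d and Sema6a differences was not tested.

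In 3 of the 4 paired comparisons the Nrp1 difference had the opposite sign to those of both Sema3a rows. Nrp1 had 56.5, 51.7 and 55.0 RPKM in anterior lateral and 28.4, 29.1 and 29.1 RPKM in anterior medial. They did not overlap, with a log2 difference of 0.91 (SE 0.10, adjusted p = 0.00649). Posterior oral levels of 16.8, 16.1 and 19.0 RPKM stood above posterior nasal levels of 5.63, 6.88 and 6.13 RPKM (log2 difference 1.47, SE 0.20, adjusted p = 0.0163). In the anterior palate oral levels of 40.2, 47.2 and 46.9 RPKM were above nasal levels of 35.7, 21.7, 33.6 and 29.2 RPKM, but the log2 difference of 0.59 (SE 0.25, unadjusted P = 0.0453, adjusted p = 1.00) was not called. Posterior lateral and medial differed by 0.30 (95% confidence interval -0.50 to 1.10), an interval that contains the anterior value.

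**Figure D5:**
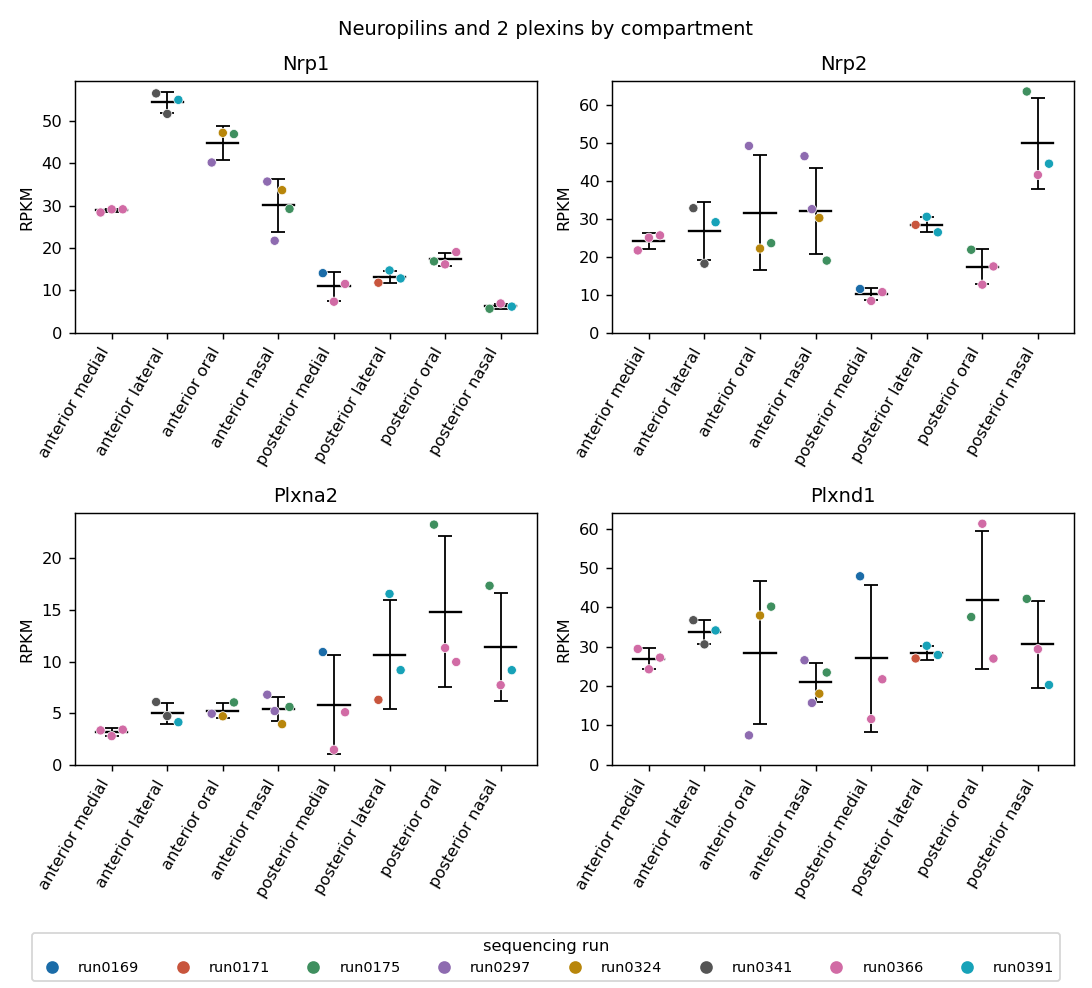
Levels in RPKM of Nrp1, Nrp2, Plxna2 and Plxnd1 in the 8 compartments, with points, lines and SD bars as for the class 3 plot (n = 3, and 4 for anterior nasal). Each anterior library of Nrp1 is above each posterior one, Nrp2 is highest in posterior nasal and lowest in posterior medial, and Plxnd1 spreads widely within several compartments.

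Nrp2, the coreceptor for Sema3f and Sema3c, was highest where Nrp1 was lowest. It had 63.5, 41.5 and 44.5 RPKM in posterior nasal and 21.8, 12.62 and 17.4 RPKM in posterior oral. These did not overlap, and the log2 difference was -1.53 (SE 0.28, adjusted p = 0.0437), the opposite sign to Nrp1 in the same libraries. In posterior lateral Nrp2 had 28.4, 30.5 and 26.4 RPKM, against 11.5, 8.32 and 10.6 RPKM in posterior medial. Every lateral library was above every medial one, with a log2 difference of 1.49 (SE 0.27, unadjusted P = 0.00114, adjusted p = 0.957), and 1.35 without posterior medial 2. Anterior lateral and anterior medial levels overlapped, as did anterior oral and anterior nasal ones. Posterior against anterior gave -0.32 with no call, pooled over positions that differed in sign. Posterior means were 10.14 against 24.06 RPKM in medial and 17.28 against 31.6 RPKM in oral tissue, both lower without overlap. They were 28.42 against 26.64 RPKM in lateral and 49.82 against 32.02 RPKM in nasal tissue, both overlapping. Within single runs, with few libraries each, posterior less anterior was -1.34 in medial, -0.03 in lateral, -0.11 in oral and 1.74 in nasal tissue.

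Posterior oral and nasal libraries also differed in their marker sums. Oral was higher for endothelium (201 to 268 against 85.5 to 132 RPKM) and Schwann cells (35.6 to 46.6 against 12.5 to 19.9 RPKM) and lower for 6 osteoblast markers (83.5 to 107 against 378 to 548 RPKM). Their part in the Nrp1, Nrp2 and Sema5b differences was not tested. Oral less nasal was also taken within the 2 runs that held both compartments, with 1 and 2 oral libraries and 1 nasal library each. It was 1.56 and 1.34 for Nrp1, -1.54 and -1.48 for Nrp2, and 1.56 and 1.87 for Sema5b. With the run as a block the estimates were 1.43, -1.50 and 1.73 and the adjusted p rose to 0.148, 0.159 and 0.189.

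The plexins, which carry the signal across the membrane, had no call in any of the 5 comparisons. Plxna1, Plxnb2 and Plxnd1 were the most abundant, with medians of 29.2, 40.8 and 27.9 RPKM. Plxnb2 compartment means lay between 31.99 ± 2.04 RPKM (SD, n = 4) in anterior nasal and 52.2 ± 15.5 RPKM (SD, n = 3) in posterior nasal, and those of Plxna1 within 1.63-fold of each other. For anterior lateral against medial, where replicates were closest, the log2 difference was -0.01 for Plxna1 (95% confidence interval -0.28 to 0.26) and -0.05 for Plxnb2 (-0.33 to 0.22). Plxnb1, Plxna3 and Plxnd1 were higher in anterior lateral without overlap, by 0.44, 0.28 and 0.33, with adjusted p of 0.169 to 0.290.

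Plxna2 had the widest range among plexins with a median above 5 RPKM. Its compartment means ran from 3.16 ± 0.346 RPKM in anterior medial to 14.9 ± 7.33 RPKM in posterior oral (SD, n = 3). Posterior libraries did not overlap with anterior ones in lateral, oral and nasal tissue, at means of 10.7 against 4.97, 14.9 against 5.22 and 11.4 against 5.38 RPKM, and overlapped in medial tissue. It was below the minimum of the posterior against anterior test, so that pattern has no p. Plxna4, Plxnb3 and Plxnc1 had medians of 2.10, 0.620 and 2.70 RPKM, and Plxnc1 was tested in posterior lateral against medial alone, at 0.62 with no call.

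Set side by side, ligand and receptor levels differed in shape. Sema3e spanned 7.99-fold between its highest and lowest compartment means and Plxnd1 2.003-fold. The Sema3e span was 18.5-fold without posterior medial 3. In anterior nasal, where Sema3e was highest at 35.0 ± 7.28 RPKM, Plxnd1 was lowest at 20.9 ± 4.95 RPKM (SD, n = 4). Plxnd1 was called in no test, and its libraries within anterior oral alone ran from 7.46 to 40.2 RPKM. Sema3c spanned 6.75-fold and Sema3f 2.21-fold, beside 4.91-fold for Nrp2. The shorter Sema3a row spanned 3.97-fold and Nrp1 8.76-fold. Sema6a spanned 3.16-fold and Sema6d 2.80-fold. The type A plexins set beside them, Plxna1, Plxna2 and Plxna4, spanned 1.63-fold, 4.70-fold and 1.93-fold, and the Plxna4 span was 3.77-fold without posterior medial 1. Sema4d with Plxnb1 spanned 1.95-fold and 1.73-fold, and Sema4c with Plxnb2 1.96-fold and 1.63-fold. Sema7a and its receptor Plxnc1 had their highest means in different compartments. They were 6.01 ± 0.317 RPKM in anterior lateral for Sema7a and 5.44 ± 2.92 RPKM in posterior lateral for Plxnc1 (SD, n = 3). Plxnc1 ran from 2.23 to 7.92 RPKM within posterior lateral and was called in no test. The pair of Sema5a and Plxnb3 was uneven, with Plxnb3 never above 2.81 RPKM.

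Tested over all 8 compartments at once, 8 of 27 rows differed, where 4.42% of all genes tested did. They were Nrp1 (adjusted p = 1.09e-07), Sema3e (0.000659), the shorter Sema3a row (0.00472), Nrp2 (0.00520), Sema5a (0.0199), Sema3d (0.0354), Sema6a (0.0382) and Sema3c (0.0389). Both neuropilins and 4 of 6 class 3 rows tested were among them, with 0 of 7 plexin rows and 0 of 6 class 4 rows. The compartment means of Nrp1 spanned 3.11 on the log2 scale and those of Sema3e 3.37, where the median span was 1.59 over the rows tested and 0.81 over all genes. With the run added as a term, Nrp1 and Nrp2 were the 2 that were called.

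Other genes of the pathway, 51 matched of 53 listed (co-receptors, adhesion partners, adaptors and effectors), gave a single call. Fyn, a kinase downstream of plexin A, was called in anterior lateral against medial, at 34.8 ± 2.44 against 20.2 ± 2.98 RPKM (SD, n = 3, log2 difference 0.79, adjusted p = 0.0343). It was 1 of 40 tested, a share near the 2.51% of all genes called. No other gene of the list was called in the 5 comparisons. At the study's thresholds the list had 0 of 40 for anterior lateral against medial, 2 of 40 for posterior lateral against medial (1.12% of all genes), 1 of 41 for anterior oral against nasal (1.44%), 1 of 40 for posterior oral against nasal (3.5%) and 0 of 32 for posterior against anterior. Met, a receptor that associates with plexin B1, was higher in posterior lateral than medial and lower in anterior oral than nasal (2.04 and -1.75), Itga1 was lower in posterior lateral (-1.01), and Flt1, a receptor of vascular endothelial growth factor that is also among the endothelial markers, was higher in posterior oral than nasal (1.42). Their adjusted p were 0.170 to 0.957.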

How the data were processed

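The authors deposited 1 table of RPKM values for all 25 libraries, after amplification with NuGEN Ovation V2, Nextera tagmentation and sequencing of 50 bases from a single end. GeneSpring 12.6.1 was used to quantify genes, without duplicate reads or reads that aligned more than once. The submitters' processing notes name TopHat and mm9. The gene annotation is not given in the sources used here. Counts were not used, and an RPKM value hides the depth behind it. Relative depth came from the steps between low values of the same gene, which gave the same ratio for 298 of 300 library pairs, and its scale from GENCODE M21 transcript lengths, at which 144 of 752 rows matched against 68 at the next best total. The study's average read number per sample is several times larger, and the sources do not say whether it was taken before duplicate and multiply aligned reads were removed, so the scale is uncertain. No scaling was added. A single column was headed by an alignment name and not by its unit, and was read as RPKM.

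Groups and replicate numbers came from the sample labels. The run of each library came from headers of the study's tables. Differences were fitted with limma 3.58.1 (lmFit and eBayes) in R 4.3.3 on log2(RPKM + 0.1), over the samples of each comparison, with Benjamini-Hochberg adjustment over all genes tested. Posterior against anterior had no term for position. Libraries of all positions counted as replicates there, and differences between positions entered the spread. A fold change on this scale understates that of low genes. The 8 compartments were also compared with an F test, and the interactions set the anterior against the posterior difference. Tables and plots used Python 3.11.15, pandas 2.3.3, numpy 2.4.6 and matplotlib 3.10.9. The fit was tested on simulated data. With 3 samples against 3 an exact permutation test of single genes cannot go below 0.1 and was not used.

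Members called, past the study's thresholds or separate at a fold change over 2 were given with each sample's value, and the others by range. The members and lists were chosen with earlier results of these data known. Deviations of same-numbered anterior oral and nasal libraries from their compartment means had correlations of 0.242, 0.218 and 0.116 across genes. Libraries of different number were not compared, and numbers 2 and 3 fell in different runs in the 2 compartments. The replicate block was fitted on these numbers, but the correlations cannot show that they pair the samples. In the other comparisons at least 1 correlation was below 0.1. Alternatives were other pseudocounts, minimums and scalings, the mean-variance trend, run and replicate blocks, all 25 libraries in 1 fit, and leaving out libraries.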

Additional observations from a re-analysis of the deposited data

Results flagged for a closer look

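The 4 anterior nasal libraries, the only group large enough for a check of single values, were examined for each of the 32 rows. Sema4f had 22.1 RPKM in anterior nasal 4, against 6.63, 8.22 and 8.35 RPKM in the other 3. That gap was 0.889 of the range, above the limit of 0.829, and anterior oral 3, from the same run, also had a high Sema4f level of 18.6 RPKM. Sema7a had 6.32 RPKM in anterior nasal 1, against 1.78, 2.24 and 2.30 RPKM, with a gap of 0.887 of the range. Chance passes this limit in about 1 of 20 groups, and 2 of 32 passed. The longer Sema3a row was lower in each anterior lateral than in each anterior medial library and higher in each posterior lateral than in each posterior medial one, and the difference between these differences was -3.55 on the log2 scale (SE 0.99, unadjusted P = 0.00481, adjusted p = 0.795 in limma). It was -2.62 without posterior medial 2. The shorter Sema3a row overlapped between posterior lateral and medial, with a log2 difference of 0.849 (unadjusted P = 0.115 in limma). In posterior medial 2 the longer row had its lowest medial level, 0.780 RPKM, and the shorter row its highest, 44.1 RPKM. That ratio of shorter to longer row, 56.5, was the highest of any library, against a median of 3.52. The part of the division of reads between the rows was not tested.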

How the results depend on the processing

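There were 991 values of the genes named, over 42 gene and comparison pairs and every alternative in which they were tested. Of these, 846 stayed on their side of the threshold, 143 lost the call and 2 gained it. The 846 include results that had no call in the main fit, with 144 values for the medial-lateral interaction and 75 for the oral-nasal one. No difference changed sign, but the spans of the test over 8 compartments are always positive and could not change sign. Replicate blocks left 8 calls for anterior lateral against medial, 3 for posterior oral against nasal, 3 for posterior against anterior, 6 over the 8 compartments and 0 elsewhere, and 5 and 3 rows at the study's thresholds for the medial-lateral and oral-nasal interactions. The block changed no call of anterior oral against nasal, and it is not known whether the replicate numbers pair the samples. For anterior lateral against medial the 9 calls became 4 with no minimum and 0 with all 25 libraries in the fit, with or without the run, and 3 to 7 without 1 library: 4 without anterior medial 1, 5 without anterior medial 2, and 5, 4 and 3 without anterior lateral 1, 2 and 3. Sema3c and Sema4f were called in all 6 of those fits, Nrp1 in 5, Sema3e in 2, and the shorter Sema3a row, Sema5b and Sema6a in 1 each, while the longer Sema3a row and Sema7a were tested in 3 and called in 3. At the study's thresholds the 5 rows became 8 with no minimum (4 to 6 without 1 library). For posterior lateral against medial the 2 rows at those thresholds became 1 with a pseudocount of 0.01, with no minimum and with a minimum of 1 RPKM, and 1 to 3 without 1 library, with 1 without posterior lateral 1 or 3. Posterior oral against nasal went from 3 calls to 0 with no minimum, 1 with a minimum of 1 RPKM, 1 with all libraries and run, 0 with run as a block (chosen after seeing the data), and 0 or 1 without any 1 library. Anterior oral against nasal had 1 call without anterior oral 1, and 3 to 5 rows at the study's thresholds. Posterior against anterior had 5 calls with all libraries by compartment, 3 to 4 without 1 library, and 6 rows at the study's thresholds with no minimum or a minimum of 1 RPKM (2 to 3 without 1 library). The 8 calls over all compartments became 5 with no minimum and 2 with run, and 4 to 12 without 1 library: 5 without anterior medial 2, any anterior lateral library, posterior lateral 3 or posterior oral 1, and 4 without any posterior nasal one. The interactions had 0 calls throughout, and 4 to 6 and 2 to 4 rows at the study's thresholds without 1 library. Without posterior medial 2 and anterior oral 1 together, added after seeing the data, posterior against anterior had 3 calls and the 8 compartments 12. A run block could not be fitted for lateral against medial. The cause of these changes was not tested. At the depth worked out here, 6 rows (Sema3b, Sema3g, Sema4a, Sema6b, Sema7a and Plxnb3) stood for 6.58 to 33.2 reads in the median library.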
